A study of Homo sapiens with 9 samples.

Results

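Aminoacyl-tRNA synthetases are the enzymes that join each amino acid to its transfer RNA, and their transcripts were followed here in human mesothelioma cells with and without hairpins against LSD1. The rule took every gene symbol made of 1 letter followed by ARS, with 1, 2 or no number, plus EPRS1, EARS2, PARS2, FARSA and FARSB, and 1 transcript cluster a gene. A transcript cluster is the set of probes that the array reads as 1 gene. The rule found 31 genes among the 21448 clusters, and each had a single cluster. By their known location, 14 encode cytosolic enzymes, 15 encode mitochondrial ones, and GARS1 and KARS1 each supply both compartments. FARSA and FARSB encode the 2 chains of 1 cytosolic enzyme and are counted apart throughout. Some genes of the family are not among these 31 and were not analysed here.

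A synthetase activates its amino acid with ATP and transfers it to the matching tRNA, and the charged tRNA then feeds the ribosome. Human cells run 2 sets of these enzymes, both encoded in the nucleus: one works in the cytosol, and the other is imported into mitochondria to serve the small set of proteins made there. Some cytosolic synthetases are held together with scaffold proteins in a multi-synthetase complex, while the others act outside it. Uncharged tRNA activates the kinase GCN2 (EIF2AK4), which raises translation of the transcription factor ATF4, and several cytosolic synthetase genes are among ATF4's known targets. WARS1, the tryptophan enzyme, is also known as a gene induced by interferon-gamma.

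The cells were ACC-MESO-1, an established line from a malignant mesothelioma, kept in RPMI-1640 with 10% fetal bovine serum, penicillin and streptomycin. They were infected with a control shRNA, with shLSD1 #1 or with shLSD1 #2, 2 hairpins against LSD1, a histone demethylase. Each group had 3 arrays: replicates 1 to 3 were control, 4 to 6 carried shLSD1 #1 and 7 to 9 carried shLSD1 #2. All cells came from this 1 line, and the labels do not say whether the arrays of a group came from separate cultures, so the p-values measure the spread between arrays, which may be technical. Total RNA was hybridised to Clariom S arrays. LSD1's own transcript is not reported. Both hairpin comparisons use the same 3 control arrays.

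The values are log2 signals, so a difference of 1 is a doubling, and a level was compared only within a gene. The array medians lay between 6.39 and 6.43. On each array, a level was taken as above background when greater than that of 95% of its 612 negative-control probe sets, and 42.0 to 46.2% of clusters met this. Precision is limited by the number of arrays. The 4 hybridization spike-ins, added to each sample at the array step, split the arrays into a high and a low class. The high class held the 3 control arrays (11.30 to 11.38) and 2 of shLSD1 #2 (11.33 and 11.18), and the low class held the 3 of shLSD1 #1 (10.80 to 10.84) and replicate 8 of shLSD1 #2 (10.93). Spike-in class and shLSD1 #1 therefore cannot be told apart except through replicate 8, and values with the class as a block stand beside the calls it ends. The block is set only by replicate 8 against replicates 7 and 9 of shLSD1 #2. For shLSD1 #1 it subtracts that 1 offset and gives a larger SE, so a call can end without a smaller change. For shLSD1 #2 it gives the same fit as leaving out replicate 8, so the 2 are not separate checks. The high-class arrays alone give the same shLSD1 #2 changes, with the spread taken from fewer arrays. Of 11 mesothelioma and epithelial genes, KRT7, KRT8, KRT18, VIM and MSLN were above the negative controls on all 9 arrays, while the mesothelial markers CALB2 and KRT5 were below them on all 9. Of 8 genes marking other cell types, 7 were below them on all 9 arrays and CD68 was above.

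Nearly all the synthetase transcripts that were lower with a hairpin encode cytosolic enzymes or GARS1, and most mitochondrial ones did not pass the test. With shLSD1 #1, 8 of the 31 genes were lower and 2 higher at an adjusted p under 0.05 in limma, where 7.94% of all clusters were lower and 7.85% higher (15.8% in all). With shLSD1 #2, 8 were lower and 3 higher, against 6.63% of all clusters lower and 6.56% higher (13.2% in all). The family is brighter than most clusters, so a closer background is the clusters above the negative controls on all 9 arrays, which include 25 of the members. Among those clusters 14.9% were lower and 13.7% higher with shLSD1 #1 (28.6% in all), and 12.2% lower and 11.8% higher with shLSD1 #2 (24.0% in all). Of the 25 members, 28.0% were lower and 8.0% higher with shLSD1 #1, and 32.0% lower and 8.0% higher with shLSD1 #2.

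The compartments differed in these counts. Of the 14 cytosolic enzymes, 6 were lower and 1 higher with shLSD1 #1, with a median log2 change of -0.19. With shLSD1 #2, 7 were lower and 1 higher, with a median of -0.39. Of the 15 mitochondrial enzymes, 1 was lower and 1 higher with shLSD1 #1 (median 0.04), and 0 were lower and 2 higher with shLSD1 #2 (median 0.18). GARS1, which serves both compartments, was lower with each hairpin, and KARS1 did not pass the test with either. Under a block on spike-in class the cytosolic and mitochondrial medians for shLSD1 #1 were -0.28 and 0.18. The median change over all clusters was 0.03 with shLSD1 #1 and 0.02 with shLSD1 #2. Counting arrays without a test, 7 cytosolic enzymes had all shLSD1 #1 arrays below all control arrays and 2 had them all above, where 16.8% and 18.2% of all clusters, and 28.5% and 27.4% of those above the negative controls, did so. For shLSD1 #2 the cytosolic counts were 9 below and 1 above, where 15.3% and 16.8% of all clusters, and 25.9% and 26.8% of those above the negative controls, did so. Among the mitochondrial enzymes these counts were 2 below and 4 above with shLSD1 #1, and 0 below and 5 above with shLSD1 #2.

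With a block on spike-in class, 1 member stayed lower and 0 higher with shLSD1 #1, where 1.86% of all clusters and 3.4% of those above the negative controls passed. In the same fit 7 members were lower and 0 higher with shLSD1 #2, where 9.05% and 16.6% passed. The comparison of shLSD1 #2 that used only arrays of the high class, 3 control against 2, called 5 members lower and 0 higher, where 6.76% of all clusters and 12.2% of those above the negative controls passed.

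**Figure D1:**
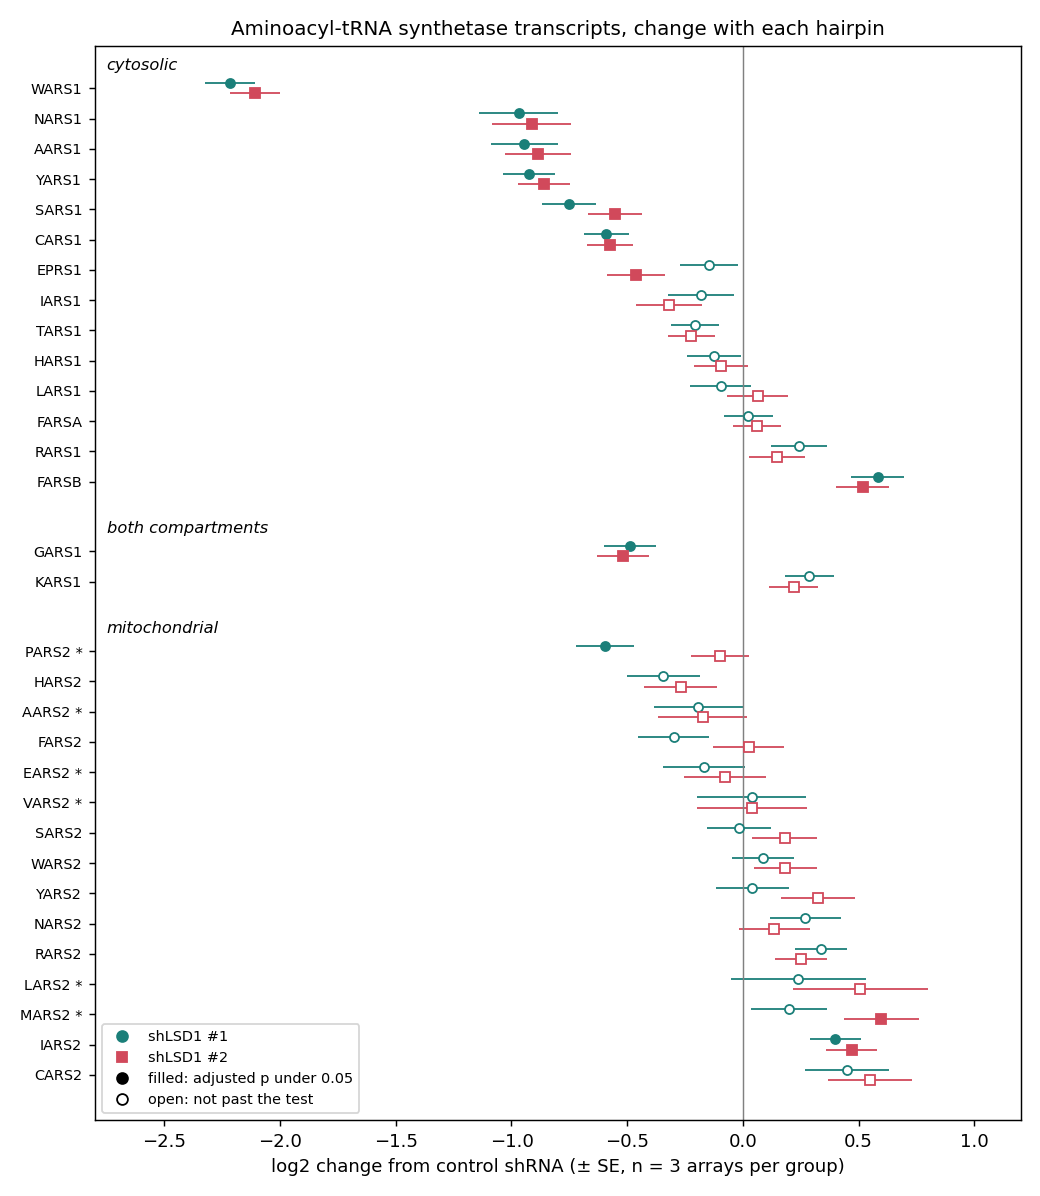
Log2 change of the 31 synthetase transcripts from control shRNA with shLSD1 #1 (circles) and shLSD1 #2 (squares), with bars of 1 SE, grouped by compartment, over 3 arrays a group. Filled symbols have an adjusted p under 0.05 and an asterisk marks the 6 genes that were not above the negative controls on all 9 arrays; the filled symbols left of 0 are mostly cytosolic, with WARS1 near -2 and the others between -1 and -0.4.

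WARS1 had the lowest change of the family with each hairpin. WARS1 read 14.28, 14.15 and 14.14 on the control arrays, 12.08, 11.89 and 11.96 with shLSD1 #1 and 12.04, 12.06 and 12.16 with shLSD1 #2. All 6 hairpin arrays lay below all control arrays, with more than 1 log2 unit between the groups. WARS1 changed by -2.22 ± 0.108 (SE, 4.64-fold lower, adjusted p = 3.02e-06) with shLSD1 #1 and -2.11 ± 0.108 (4.31-fold lower, adjusted p = 3.57e-06) with shLSD1 #2. It was the only member whose calls with both hairpins held in every alternative run, the block on spike-in class included (adjusted p = 0.00223 for shLSD1 #1 and 4.84e-05 for shLSD1 #2).

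The WARS1 promoter is shown because the gene is known to answer interferon-gamma, and its upstream stretch carries letters of both kinds of interferon element. RefSeq lists 2 starts for the gene, and only the window of the second held the matches. The stretch of 117 bases runs from -152 to -36 relative to that start, in GRCh38.p14 at chr14:100375383-100375499 on the - strand. The first run in capitals matches TTCNNNGAA, the core letters of the gamma-activated element, and the second matches GAAA, any 2 bases and GAAA again, core letters of the element bound by interferon regulatory factors.
WARS1: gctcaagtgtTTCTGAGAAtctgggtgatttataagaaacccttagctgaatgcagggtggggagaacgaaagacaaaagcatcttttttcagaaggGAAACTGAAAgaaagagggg
Over all 35116 promoter windows of the same length, 7.66% held TTCNNNGAA and 3.57% held the second motif, on either strand. At least 1 window held them in 9.38% and 4.38% of the 27305 genes. Among the 27 members with a window, the first also stood in CARS1, PARS2, TARS1 and WARS2, and the second in EARS2. A match is a description of letters and was not tested as a binding site.

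Other genes known to be induced by interferon-gamma were read from a list of 8, of which 6 were on the array with a name. With shLSD1 #1, 5 of the 6 were lower, with a median log2 change of -1.12, where 7.94% of all clusters were lower. With shLSD1 #2 all 6 were lower, with a median of -1.29, where 6.63% of all clusters were. Raising all values to the negative-control level gave medians of -1.12 for shLSD1 #1 and -0.98 for shLSD1 #2. The transcription factor subunit IRF9 changed by -2.18 and -2.27 (adjusted p = 3.04e-05 and 2.16e-05). TAP1, which moves peptides for antigen presentation, changed by -1.39 and -1.55 (adjusted p = 0.000115 and 5.65e-05). The transcription factor IRF1 changed by -1.15 and -1.02 (adjusted p = 0.000383 and 0.000804). GBP2, a guanylate-binding protein, changed by -0.96 (adjusted p = 0.0022) with shLSD1 #1 and was at least 2.03-fold lower with shLSD1 #2, whose arrays were all below the negative controls. With spike-in class taken as a block, 4 of the 6 passed with shLSD1 #1 and 5 with shLSD1 #2, and IRF1 no longer passed with shLSD1 #1 (adjusted p = 0.0646). In that fit 1.86% and 9.05% of all clusters passed, and 3.4% and 16.6% of those above the negative controls.

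The 11 cytosolic or shared enzymes that act outside the multi-synthetase complex held most of the lower calls. With each hairpin 7 of the 11 were lower and 1 was higher, with a median log2 change of -0.59 for shLSD1 #1 and -0.55 for shLSD1 #2. Taken array by array against the mean of the controls, their median was -0.56, -0.58 and -0.62 on the shLSD1 #1 arrays. It was -0.60, -0.52 and -0.50 on the shLSD1 #2 arrays and 0.01, -0.03 and 0.02 on the control arrays. The genes are described in order of their change.

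NARS1 charges tRNA with asparagine. NARS1 read 13.27, 13.49 and 13.37 on the control arrays, 12.31, 12.79 and 12.13 with shLSD1 #1 and 12.41, 12.37 and 12.61 with shLSD1 #2. The groups did not overlap, although shLSD1 #1 replicate 5 lay nearer the controls than its partners. NARS1 changed by -0.97 ± 0.17 (SE, 1.96-fold lower, adjusted p = 0.00441) with shLSD1 #1 and -0.91 ± 0.17 (1.88-fold lower, adjusted p = 0.00673) with shLSD1 #2. AARS1 is the alanine enzyme, which also edits tRNA mischarged with serine. AARS1 read 13.48, 13.42 and 13.39 on the control arrays, 12.30, 12.63 and 12.53 with shLSD1 #1 and 12.66, 12.28 and 12.69 with shLSD1 #2. Every hairpin array was below every control array. AARS1 changed by -0.94 ± 0.143 (SE, 1.92-fold lower, adjusted p = 0.00201) with shLSD1 #1 and -0.89 ± 0.143 (1.85-fold lower, adjusted p = 0.0032) with shLSD1 #2.

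YARS1, the tyrosine enzyme, is also known for a secreted fragment with cytokine activity. YARS1 read 13.64, 13.50 and 13.68 on the control arrays, 12.77, 12.70 and 12.58 with shLSD1 #1 and 12.75, 12.65 and 12.83 with shLSD1 #2. All hairpin arrays were again below the controls. YARS1 changed by -0.92 ± 0.113 (SE, 1.9-fold lower, adjusted p = 0.000599) with shLSD1 #1 and -0.86 ± 0.113 (1.82-fold lower, adjusted p = 0.000949) with shLSD1 #2. SARS1 charges tRNA with serine, including the selenocysteine tRNA. SARS1 read 14.31, 14.35 and 14.35 on the control arrays, 13.54, 13.74 and 13.48 with shLSD1 #1 and 13.81, 13.67 and 13.88 with shLSD1 #2. The control arrays were close together and lay above all others. SARS1 changed by -0.75 ± 0.115 (SE, 1.68-fold lower, adjusted p = 0.00215) with shLSD1 #1 and -0.55 ± 0.115 (1.47-fold lower, adjusted p = 0.0119) with shLSD1 #2.

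CARS1 is the cysteine enzyme. CARS1 read 12.05, 12.03 and 12.07 on the control arrays, 11.49, 11.47 and 11.43 with shLSD1 #1 and 11.40, 11.53 and 11.50 with shLSD1 #2. Within each group its arrays were close together, and the hairpin groups lay apart from the controls. CARS1 changed by -0.59 ± 0.0991 (SE, 1.5-fold lower, adjusted p = 0.00345) with shLSD1 #1 and -0.58 ± 0.0991 (1.49-fold lower, adjusted p = 0.00446) with shLSD1 #2. GARS1 supplies the glycine enzyme of both the cytosol and mitochondria. GARS1 read 15.48, 15.29 and 15.48 on the control arrays, 14.96, 15.00 and 14.83 with shLSD1 #1 and 14.82, 14.97 and 14.91 with shLSD1 #2. The arrays did not overlap, but control replicate 2 lay below its partners. GARS1 changed by -0.49 ± 0.112 (SE, 1.4-fold lower, adjusted p = 0.0167) with shLSD1 #1 and -0.52 ± 0.112 (1.43-fold lower, adjusted p = 0.0146) with shLSD1 #2. The shLSD1 #1 call for GARS1 was lost without control replicate 1 (adjusted p = 0.0605), control replicate 3 (0.0601) or shLSD1 #1 replicate 6 (0.0593). The shLSD1 #2 call was lost without control replicate 1 (adjusted p = 0.056), control replicate 3 (0.0545) or shLSD1 #2 replicate 7 (0.057).

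With spike-in class taken as a block, the calls of these 6 genes with shLSD1 #1 ended. Their block changes were -0.84 for NARS1, -0.55 for AARS1, -0.78 for YARS1, -0.57 for SARS1, -0.67 for CARS1 and -0.59 for GARS1. The adjusted p-values of that limma fit were 0.264, 0.28, 0.112, 0.231, 0.123 and 0.226 in the same order. Its SEs were 0.319, 0.216, 0.204, 0.204, 0.182 and 0.207, against 0.17, 0.143, 0.113, 0.115, 0.0991 and 0.112 without the block. CARS1 and GARS1 moved further below 0 with the block, so their calls ended with a larger change and a larger SE. For AARS1 the change moved from -0.94 to -0.55, by over 1.5 times. That shift is the offset of replicate 8 from replicates 7 and 9. With shLSD1 #2 all 6 still passed with the block, with adjusted p-values between 0.00566 for YARS1 and 0.0476 for SARS1. For this hairpin that is the fit without replicate 8. From the high-class arrays alone, SARS1 (adjusted p = 0.0656) and GARS1 (0.0662) no longer passed with shLSD1 #2, and NARS1, AARS1, YARS1 and CARS1 did.

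**Figure D2:**
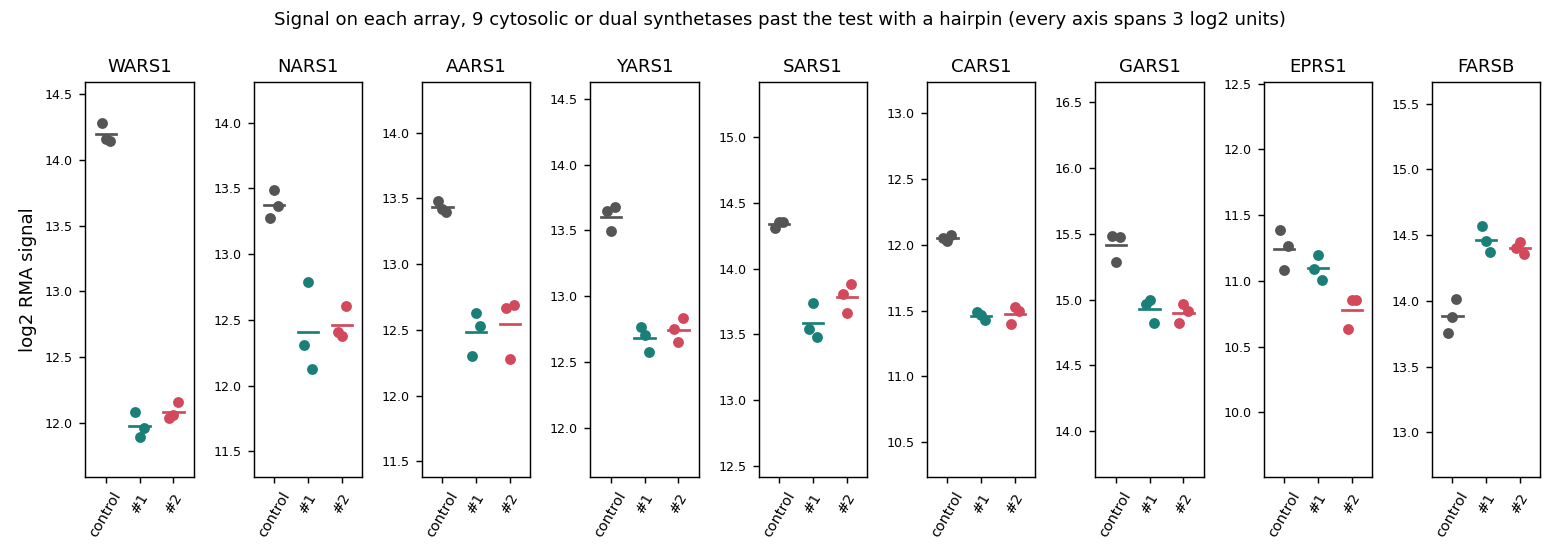
Log2 signal on each of the 9 arrays for the 9 cytosolic or shared synthetase transcripts past the test with at least 1 hairpin, with a point for an array and a bar for the mean of 3 arrays. Each vertical axis spans the same log2 range around a different level; WARS1, NARS1, AARS1, YARS1, SARS1, CARS1 and GARS1 have all 6 hairpin points below all 3 control points.

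Sequence near the starts of 4 of these genes is shown because ATF4, with a C/EBP partner, is known to bind the letters TGATGNAA, and synthetase genes are among its known targets. Each 30-base stretch is written 5′ to 3′ on the gene's strand, from RefSeq in GRCh38.p14, with the match in capitals. A capital run that begins with TT is the reverse complement of the motif.
AARS1, chr16:70289675-70289704, - strand: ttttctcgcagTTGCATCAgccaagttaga
CARS1, chr11:3057407-3057436, - strand: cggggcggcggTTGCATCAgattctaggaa
NARS1, chr18:57621804-57621833, - strand: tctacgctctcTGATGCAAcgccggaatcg
GARS1, chr7:30594834-30594863, + strand: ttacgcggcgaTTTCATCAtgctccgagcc
The matches began at -187 for AARS1, -2 for CARS1, 15 for NARS1 and -33 for GARS1, counted in bases from the start of the transcript. RefSeq lists 2 starts for CARS1 and 2 for GARS1, and only 1 window of each held the match. The CARS1 match is counted from the start at 3057423 and the GARS1 match from that at 30594878. In AARS1, CARS1 and NARS1 the match also spells the narrower TGATGCAA, which is a subset of the first motif. The same letters stood in 2 cytosolic genes that did not pass the test with either hairpin, IARS1 and TARS1, although TARS1 passed as lower with shLSD1 #2 under a trended robust prior (adjusted p = 0.0454).
IARS1, chr9:92293692-92293721, - strand: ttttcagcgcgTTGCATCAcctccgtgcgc
TARS1, chr5:33440956-33440985, + strand: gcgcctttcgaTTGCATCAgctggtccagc
Promoter windows from 250 bases before to 50 after the start were available for 27 of the 31 members. AARS2, LARS1, VARS2 and YARS1 had none, so YARS1, lower with both hairpins, was not searched. Among genes with a window, TGATGNAA was found on either strand in 4 of the 7 cytosolic or shared genes lower with at least 1 hairpin. It was found in 2 of the 7 other cytosolic or shared genes with a window, and in 1 of the 13 mitochondrial genes with a window (YARS2). Over all 35116 windows 3.62% held it, as did at least 1 window of 4.46% of the 27305 genes. TGATGCAA was found in 3 of the 7, 2 of the 7 and 0 of the 13, and in 0.866% of all windows and 1.08% of the genes. No window of a member held TGACGTCA, the palindromic site of ATF and CREB proteins, which stood in 1.85% of all windows and 2.25% of the genes. CCAAT, bound by NF-Y, stood in 14 of the 27 members and in 39.7% of the genes (34.6% of all windows). CACGTG, bound by MYC and related factors, stood in 4 of the 27 and in 8.77% of the genes (7.26% of all windows). These are counts of letters in short windows and say nothing of occupancy.

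Within the multi-synthetase complex, changes were small. Its 5 members measured here are EPRS1, IARS1, KARS1, LARS1 and RARS1, and 0 of the 5 were lower with shLSD1 #1 and 1 with shLSD1 #2. Their median log2 change was -0.10 with shLSD1 #1 and 0.06 with shLSD1 #2. The median by array was 0.06, -0.05 and 0.01 for shLSD1 #1, -0.03, 0.01 and 0.01 for shLSD1 #2, and 0.01, -0.07 and 0.02 for the controls. The hairpin arrays overlapped the control arrays on this measure.

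EPRS1, a fused enzyme that charges both glutamate and proline, was the 1 that passed. EPRS1 read 11.39, 11.08 and 11.26 on the control arrays, 11.09, 11.20 and 11.01 with shLSD1 #1 and 10.63, 10.85 and 10.86 with shLSD1 #2. The shLSD1 #1 arrays overlapped the controls and the shLSD1 #2 arrays lay below them. Its log2 change was -0.15 ± 0.126 (SE, adjusted p = 0.496) with shLSD1 #1 and -0.46 ± 0.126 (1.38-fold lower, adjusted p = 0.0396) with shLSD1 #2. The shLSD1 #2 call was lost with the class as a block (adjusted p = 0.0722) and in the fit of the 2 groups alone (0.0694). It was also lost without control replicate 1 (adjusted p = 0.131) or 3 (0.105), shLSD1 #1 replicate 4 (0.0587) or 6 (0.0508), or shLSD1 #2 replicate 7 (0.133), 8 (0.0722) or 9 (0.0621).

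The other 4 did not pass. The isoleucine enzyme IARS1 stood at -0.18 (adjusted p = 0.451) and -0.32 (0.192), and the leucine enzyme LARS1, a known sensor of leucine for mTORC1, at -0.10 (0.686) and 0.06 (0.818). The arginine enzyme RARS1 stood at 0.24 (adjusted p = 0.225) and 0.15 (0.515). The lysine enzyme KARS1 stood at 0.29 (adjusted p = 0.1) and 0.22 (0.227), and with limma's trended robust prior it passed as higher with both hairpins (0.00684 and 0.0402). Without the dimmest 1 in 3 clusters KARS1 also passed with shLSD1 #1 (0.0469). Of the scaffold's 3 proteins, AIMP1 was on the array with a name. AIMP1 read 11.58, 11.86 and 11.79 on the control arrays, 11.18, 11.02 and 10.92 with shLSD1 #1 and 11.14, 11.19 and 11.28 with shLSD1 #2. All hairpin arrays of AIMP1 lay below its controls. AIMP1 changed by -0.70 ± 0.122 (SE, 1.63-fold lower, adjusted p = 0.00415) with shLSD1 #1 and -0.54 ± 0.122 (1.45-fold lower, adjusted p = 0.0171) with shLSD1 #2. With the class as a block AIMP1 did not pass (adjusted p = 0.201 and 0.0531). The shLSD1 #2 call of AIMP1 was also lost without control replicate 2 (0.0682) or 3 (0.0593), or shLSD1 #2 replicate 7 (0.0628) or 8 (0.0531).

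**Figure D3:**
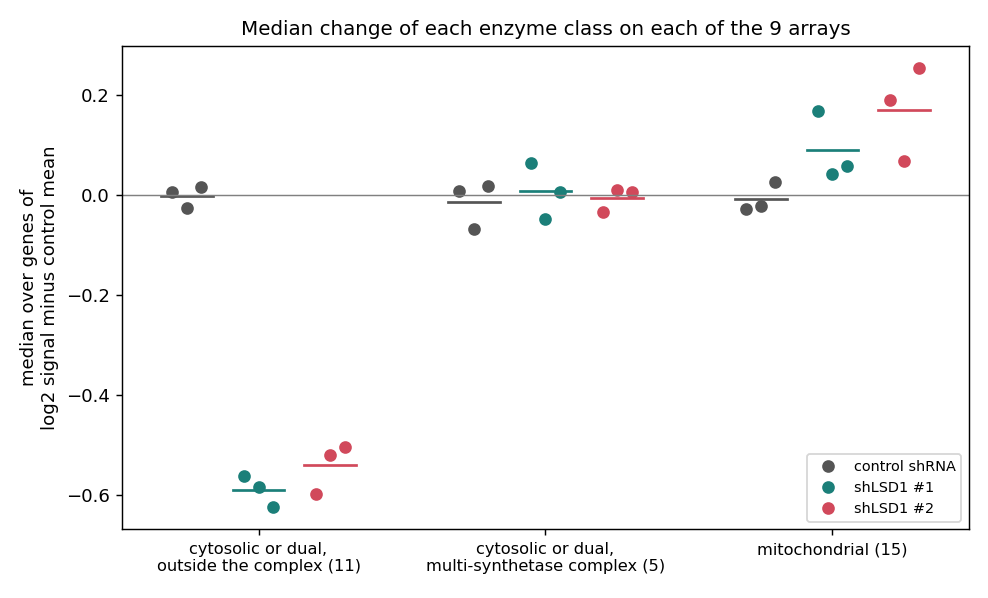
Median over genes of each array's log2 difference from the mean of the 3 control arrays, for the 11 cytosolic or shared synthetases outside the multi-synthetase complex, the 5 in it and the 15 mitochondrial ones, with a point for an array and a bar for the mean of 3 arrays. The first class lies between -0.62 and -0.50 on the 6 hairpin arrays, the second between -0.05 and 0.06, and the third between 0.04 and 0.25.

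The phenylalanine enzyme of the cytosol is built from alpha chains (FARSA) and beta chains (FARSB), and only the beta chain passed the test. FARSB read 13.75, 13.88 and 14.02 on the control arrays, 14.57, 14.45 and 14.37 with shLSD1 #1 and 14.40, 14.45 and 14.35 with shLSD1 #2. All hairpin arrays of FARSB were above the controls. FARSB changed by 0.58 ± 0.114 (SE, 1.5-fold higher, adjusted p = 0.00743) with shLSD1 #1 and 0.52 ± 0.114 (1.43-fold higher, adjusted p = 0.0154) with shLSD1 #2. FARSA read 13.28, 13.38 and 13.27 on the control arrays, 13.45, 13.28 and 13.27 with shLSD1 #1 and 13.32, 13.38 and 13.41 with shLSD1 #2. The FARSA arrays overlapped between groups, and its changes of 0.02 and 0.06 did not pass (adjusted p = 0.909 and 0.779). With the class as a block the FARSB calls were lost (adjusted p = 0.311 and 0.0541). The shLSD1 #2 call of FARSB was also lost without control replicate 1 (0.061), control replicate 2 (0.0514) or shLSD1 #2 replicate 8 (0.0541). The difference in change between the chains was not tested.

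The threonine enzyme TARS1 stood at -0.21 (adjusted p = 0.219) and -0.22 (0.21) and the histidine enzyme HARS1 at -0.13 (0.529) and -0.10 (0.676). Neither passed, although all hairpin arrays of TARS1 lay below its control arrays and it passed as lower with shLSD1 #2 under a trended robust prior (adjusted p = 0.0454). HARS1 and its mitochondrial counterpart HARS2 start head to head on chromosome 5, with 85 bases between their RefSeq starts. HARS2 stood at -0.34 and -0.27 (adjusted p = 0.185 and 0.336). By fold of the enzyme's catalytic domain, the genes of cytosolic or shared enzymes with a single fold comprise 6 of class I and 9 of class II. The 9 count FARSA and FARSB apart, each placed by the class of their shared enzyme. Lower calls fell in both classes: 3 of the 6 and 4 of the 9 with each hairpin.

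The mitochondrial enzymes had lower signals relative to background in part: 9 of the 15 were above the negative controls on all 9 arrays, while AARS2, EARS2, MARS2 and VARS2 were below them on all 9. Of the 9, IARS2 passed the test. IARS2 charges mitochondrial tRNA with isoleucine. IARS2 read 10.68, 10.73 and 10.75 on the control arrays, 11.01, 11.11 and 11.24 with shLSD1 #1 and 11.14, 11.30 and 11.14 with shLSD1 #2. Every hairpin array was above every control array. IARS2 changed by 0.40 ± 0.11 (SE, 1.32-fold higher, adjusted p = 0.0371) with shLSD1 #1 and 0.47 ± 0.11 (1.39-fold higher, adjusted p = 0.0204) with shLSD1 #2. With the class as a block the IARS2 changes were 0.24 and 0.42 and neither passed (adjusted p = 0.654 and 0.0735). With shLSD1 #1 the call was lost in the fit of the 2 groups alone (0.0633) and without control replicate 1 (0.104), 2 (0.0899) or 3 (0.0827), shLSD1 #1 replicate 5 (0.0703) or 6 (0.117), or shLSD1 #2 replicate 7 (0.0546). With shLSD1 #2 it was lost without control replicate 1 (0.0688), 2 (0.0599) or 3 (0.0544), or shLSD1 #2 replicate 8 (0.0735).

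PARS2, the mitochondrial proline enzyme, was near background. PARS2 read 7.44, 7.54 and 7.71 on the control arrays, 6.81, 7.11 and 6.99 with shLSD1 #1 and 7.55, 7.47 and 7.37 with shLSD1 #2. The shLSD1 #1 arrays lay below all the others, and the shLSD1 #2 arrays overlapped the controls. Measured against each array's own limit, it exceeded the negative controls on 2 of 3 control arrays, on 0 of 3 with shLSD1 #1 and on 3 of 3 with shLSD1 #2. With shLSD1 #1 it was at least 1.31-fold lower than control, taking the negative-control level as the bound (fitted log2 change -0.60, adjusted p = 0.0113). With shLSD1 #2 its change was -0.10 (adjusted p = 0.689). The shLSD1 #1 call was lost with the class as a block (adjusted p = 0.282).

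MARS2, the mitochondrial methionine enzyme, passed with shLSD1 #2 (adjusted p = 0.039), but all 9 of its arrays were below the negative controls, so no fold is given. MARS2 read 5.23, 5.44 and 5.66 on the control arrays, 5.65, 5.70 and 5.58 with shLSD1 #1 and 6.01, 6.33 and 5.78 with shLSD1 #2. The shLSD1 #2 arrays lay above the controls and the shLSD1 #1 arrays overlapped them. The call was lost with the class as a block (adjusted p = 0.122), with a trended robust prior (0.0591) and in the fit of the 2 groups alone (0.0794). It was also lost without control replicate 1 (0.129) or 2 (0.101), each array of shLSD1 #1 in turn (0.0538 to 0.0585), or shLSD1 #2 replicate 7 (0.0916) or 8 (0.122).

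Other mitochondrial enzymes did not pass and are given by their values. The cysteine enzyme CARS2 stood at 0.45 (adjusted p = 0.13) and 0.55 (0.0808), and with shLSD1 #2 it passed without the dimmest 1 in 3 clusters (0.0479) and with a trended robust prior (0.0209). The arginine enzyme RARS2 stood at 0.34 (adjusted p = 0.0727) and 0.25 (0.189), and with shLSD1 #1 it passed under the same settings (0.0335 and 0.0149). FARS2, NARS2, SARS2, WARS2 and YARS2, which charge phenylalanine, asparagine, serine, tryptophan and tyrosine, lay between -0.30 (FARS2) and 0.27 (NARS2) with shLSD1 #1. With shLSD1 #2 they lay between 0.02 (FARS2) and 0.32 (YARS2). LARS2, the leucine enzyme, exceeded the negative controls on 1 of 9 arrays. Raising all values to the negative-control level gave a mitochondrial median of 0.00 for shLSD1 #1 and 0.14 for shLSD1 #2.

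For 14 pairs of a cytosolic and a mitochondrial enzyme, over 13 amino acids, the changes can be set side by side; EPRS1 and FARS2 each stand in 2 pairs. The cytosolic change was the lower in 9 pairs with shLSD1 #1 and in 11 with shLSD1 #2, with a median of -0.46 and -0.58 over the pairs' differences. In 4 pairs the mitochondrial enzyme (AARS2, EARS2, LARS2 or PARS2) was not above the negative controls on all 9 arrays, so its change is poorly measured. In the other 10, counted so after the data were seen, the cytosolic change was the lower in 7 with each hairpin, with a median of -0.66 and -0.76. Among these 10, NARS2 (7.67 to 7.70) and SARS2 (7.74 to 8.01) were near background on the control arrays, whose limits were 7.22 to 7.54. A lower level of either would be poorly measured. Over all 14, the differences ran from -2.30 to 0.88 with shLSD1 #1 and from -2.29 to 0.49 with shLSD1 #2. Tryptophan had the lowest: WARS1 changed by -2.22 and -2.11, while WARS2 stood at 0.09 and 0.18 (adjusted p = 0.718 and 0.453). WARS2 read 10.02, 9.96 and 9.97 on the control arrays, 10.19, 9.79 and 10.24 with shLSD1 #1 and 10.14, 10.25 and 10.12 with shLSD1 #2. The hairpin arrays of WARS2 lay just above its controls, except replicate 5 of shLSD1 #1, which lay below them. For cysteine, CARS2 read 9.53, 9.15 and 9.56 on the control arrays, 9.76, 9.92 and 9.91 with shLSD1 #1 and 9.70, 9.85 and 10.34 with shLSD1 #2. All hairpin arrays of CARS2 were above its controls, whereas those of CARS1 were below, although the change of CARS2 did not pass the test. The phenylalanine pair with FARSB had the highest difference, with FARSB higher and FARS2 at -0.30 and 0.02. No test of these differences was run.

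**Figure D4:**
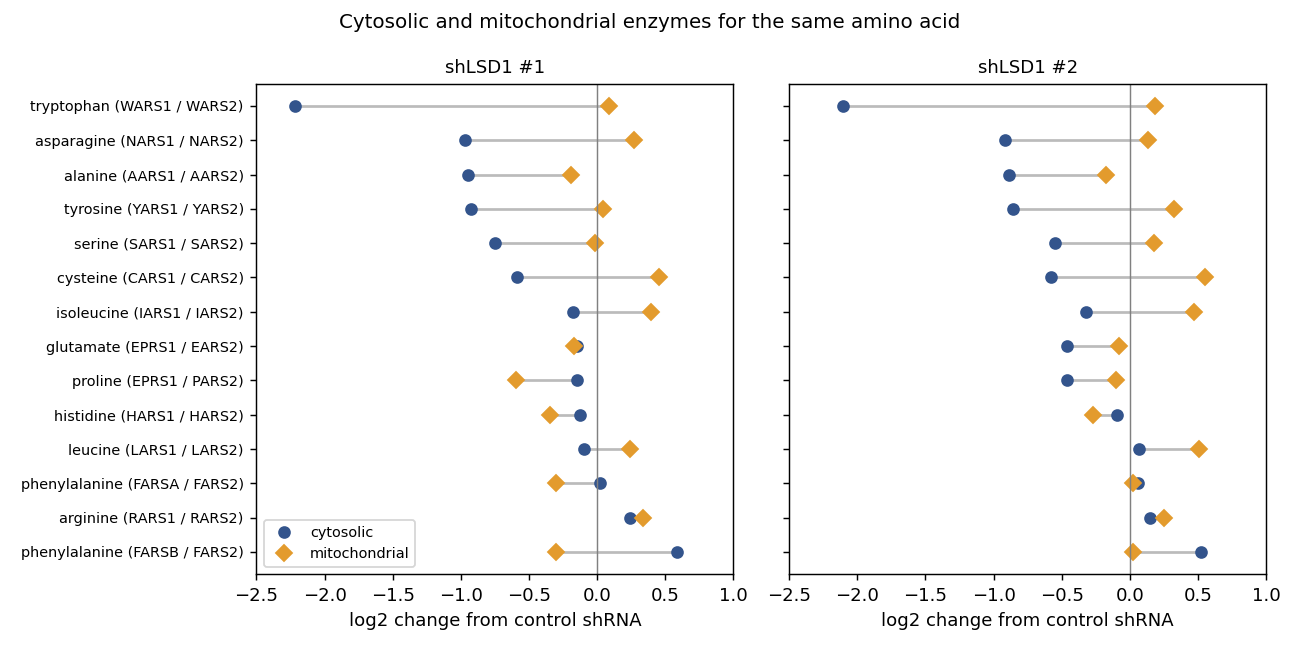
Log2 change from control shRNA of the cytosolic and the mitochondrial enzyme for each of 13 amino acids (14 pairs, since phenylalanine has 2 cytosolic chains), in a panel for each hairpin over 3 arrays a group. A line joins the enzymes of a pair; the cytosolic point lies left of the mitochondrial one in 9 pairs with shLSD1 #1 and 11 with shLSD1 #2.

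The difference between the hairpins was tested in the same limma fit. Of the 31 members, 0 passed an adjusted p under 0.05, as did 0.0% of all clusters, and the smallest adjusted p among members was 0.479, for PARS2. At an unadjusted p under 0.05, 3 members differed (EPRS1, MARS2 and PARS2). PARS2 differed by -0.50 (95% interval -0.78 to -0.21) between shLSD1 #1 and shLSD1 #2, and EPRS1 by 0.32 (0.03 to 0.60). For all 31 members the 95% interval of the difference lay within 1 log2 unit of 0; this does not show that the hairpins act alike. With a trended robust prior 42 of all clusters passed, and 0 members. Spike-in class differs between the hairpins too, since replicates 7 and 9 of shLSD1 #2 were of the high class.

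Genes around the synthetases were read from lists of other steps, to be set against the shares over all clusters. With shLSD1 #1, 7.94% of all clusters were lower and 7.85% higher (14.9% and 13.7% of those above the negative controls). With shLSD1 #2 these were 6.63% and 6.56% (12.2% and 11.8%). A list for tRNA proofreading, export and selenocysteine synthesis also held the synthetase paralogue TARS3, and 6 of its 7 genes were measured. Of these, 1 (16.7%) was lower with shLSD1 #1, near the 14.9%. With shLSD1 #2, 2 were lower and 1 higher (medians -0.22 and -0.23 for the 2 hairpins). XPOT, the exporter of tRNA from the nucleus, changed by -0.57 and -0.51 (adjusted p = 0.014 and 0.0277). TARS3, a threonyl-tRNA synthetase paralogue outside the rule, changed by -0.98 with shLSD1 #2 (adjusted p = 0.0144) and stood at -0.41 with shLSD1 #1 (0.238). PSTK, the kinase that acts on seryl-tRNA in selenocysteine synthesis, passed with shLSD1 #2 (adjusted p = 0.0467) from control arrays below the negative controls.

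The call of XPOT was lost for shLSD1 #1 without control replicate 3 (adjusted p = 0.0553), and for shLSD1 #2 when each of the 6 arrays compared was left out in turn (0.0502 to 0.0962). With the class as a block neither XPOT call held (adjusted p = 0.208 and 0.0528), nor did those of TARS3 (0.0522) and PSTK (0.14) with shLSD1 #2. From the high-class arrays alone XPOT (0.0656), TARS3 (0.117) and PSTK (0.127) did not pass with shLSD1 #2 either. TARS3 was lost without control replicate 3 (0.0523) or shLSD1 #2 replicate 7 (0.0505) or 8 (0.0522). PSTK was lost without control replicate 1 (0.122) or 2 (0.152), shLSD1 #1 replicate 5 (0.0626), or shLSD1 #2 replicate 8 (0.14) or 9 (0.122), and with array weights (0.058).

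In mitochondria, the genes that amidate glutamyl-tRNA and formylate methionyl-tRNA gave 0 of 4 calls with shLSD1 #1 and 2 of 4 higher with shLSD1 #2, with medians of 0.32 and 0.40. GATB and GATC, subunits of the amidating enzyme, changed by 0.56 and 0.54 with shLSD1 #2 (adjusted p = 0.0131 and 0.0105). With shLSD1 #1 they stood at 0.35 and 0.35 (adjusted p = 0.0828 and 0.0607), and both passed as higher without the dimmest 1 in 3 clusters (0.0415 and 0.0264) and with a trended robust prior (0.0314 and 0.00656). With shLSD1 #2, GATB no longer passed without control replicate 1 (0.0535), or with the class as a block or without shLSD1 #2 replicate 8 (0.05 in each, just over the threshold before rounding), and neither passed from the high-class arrays alone (0.0805 and 0.0667). Of 10 mitochondrial translation factors 8 were measured, and 3 were higher with shLSD1 #1 and 1 with shLSD1 #2 (medians 0.29 and 0.28). These shares are 37.5% and 12.5%, where 13.7% and 11.8% of clusters above the negative controls were higher, so the latter is near the background. The initiation factor MTIF2 changed by 0.53 and 0.53 (adjusted p = 0.0121 and 0.014), and the latter was lost with the class as a block or without shLSD1 #2 replicate 8 (0.0513 in each) and from the high-class arrays alone (0.0829). With shLSD1 #1 the recycling factor MRRF changed by 0.52 (adjusted p = 0.01) and the ribosome rescue factor MTRFR by 0.47 (0.0488), and MTRFR no longer passed when each of 8 arrays, all but replicate 6, was left out in turn (0.0529 to 0.126). With shLSD1 #2, MRRF stood at 0.35 (adjusted p = 0.0604) and passed as higher under 4 alternatives: a second quantile normalization (0.0482), without the dimmest 1 in 3 clusters (0.0253), a trended robust prior (0.0048) and array weights (0.0425). With the class as a block none of MTIF2, MRRF and MTRFR passed with shLSD1 #1, with changes of 0.29, 0.57 and 0.24 (adjusted p = 0.541, 0.229 and 0.733). Of 6 cytosolic elongation factors 3 were measured and none passed, with medians of -0.03 and 0.05.

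The regulators that answer amino acid shortage and related stress were mostly lower. Of 14 such genes 13 were measured: 8 were lower and 2 higher with shLSD1 #1, and 8 lower and 1 higher with shLSD1 #2, with medians of -0.74 and -0.81. CHAC1, which breaks down glutathione, changed by -2.07 and -2.73 (adjusted p = 3.01e-05 and 4.61e-06). DDIT4, an inhibitor of mTORC1 signalling, changed by -2.33 and -2.42 (adjusted p = 0.000247 and 0.000199). The stress-induced regulator NUPR1 changed by -1.59 and -1.91 (adjusted p = 0.000269 and 9e-05). The transcription factor ATF3 was higher, at 0.85 and 1.05 (adjusted p = 0.0018 and 0.000577). ATF4 itself, named after its values were seen, changed by -0.85 and -0.91 (adjusted p = 0.000605 and 0.000426); with the class as a block its adjusted p was 0.105 and 0.00292. With the block, 3 of the 13 passed with shLSD1 #1 and 8 with shLSD1 #2, and ATF3 no longer passed with shLSD1 #1 (adjusted p = 0.182). In that fit 1.86% of all clusters and 3.4% of those above the negative controls passed with shLSD1 #1. For shLSD1 #2 these shares were 9.05% and 16.6%, so the counts of the 2 hairpins have unlike backgrounds.

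Enzymes that make amino acids were lower or did not pass. Of 12 synthesis enzymes 11 were measured, and 8 were lower with shLSD1 #1 and 6 with shLSD1 #2, with medians of -0.56 and -0.49. PHGDH, the first enzyme of serine synthesis, changed by -2.03 and -1.85 (adjusted p = 2.43e-05 and 3.76e-05). ASNS, which makes asparagine, changed by -1.43 and -1.31 (adjusted p = 8.12e-05 and 0.000135). PYCR1, the last step of proline synthesis, changed by -1.30 and -1.29 (adjusted p = 0.000372 and 0.000411), and CBS, of cysteine synthesis, by -1.43 and -1.32 (0.000137 and 0.00023). With the block, 4 of the 11 passed with shLSD1 #1 and 5 with shLSD1 #2, where 1.86% and 9.05% of all clusters did. Among clusters above the negative controls 3.4% and 16.6% did. The shLSD1 #1 change of PYCR1 was -0.85 with the block and no longer passed (adjusted p = 0.0885).

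Of 10 amino acid transporters, 8 were lower with shLSD1 #1 and 7 with shLSD1 #2, with medians of -0.71 and -0.65. SLC7A5, a carrier of large neutral amino acids, changed by -1.11 and -1.11 (adjusted p = 0.000322 and 0.000343). The glutamine carrier SLC1A5 changed by -1.0 and -0.78 (adjusted p = 0.000455 and 0.00206), and the glycine carrier SLC6A9 by -1.23 and -1.17 (0.000326 and 0.000448). SLC43A1, also among the calls, was below the negative controls on all 9 arrays, and with the block it passed with neither hairpin (adjusted p = 0.375 and 0.117). With the block, 0 of the 10 passed with shLSD1 #1 (adjusted p = 0.0552, 0.0958 and 0.0598 for SLC7A5, SLC1A5 and SLC6A9) and 6 with shLSD1 #2. Passing shares in that fit were 1.86% and 9.05% of all clusters, and 3.4% and 16.6% of those above the negative controls. Whether the synthetases and these genes share a cause was not tested.

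Markers of the cell line and of other cells were read in the same fit. Of the 11 mesothelioma and epithelial genes, 2 were higher (18.2%) and 1 lower (9.09%) with each hairpin. Over all clusters 7.85% were higher and 7.94% lower with shLSD1 #1, and 6.56% and 6.63% with shLSD1 #2. Among those above the negative controls these were 13.7% and 14.9%, and 11.8% and 12.2%. The few calls here are near the latter shares. WT1 and UPK3B passed as higher from control arrays below the negative controls, by at least 1.35-fold and 1.14-fold with shLSD1 #1. MSLN changed by -0.85 and -0.95 (adjusted p = 0.00729 and 0.00482). With the class as a block, WT1 (adjusted p = 0.561), UPK3B (0.167) and MSLN (0.573) no longer passed with shLSD1 #1, and the change of MSLN went from -0.85 to -0.33. In that fit WT1 was also lost with shLSD1 #2 (0.107), while UPK3B (0.0148) and MSLN (0.0124) passed. With shLSD1 #2, WT1 no longer passed without control replicate 2 (adjusted p = 0.0714) or shLSD1 #2 replicate 8 (0.107) or 9 (0.0687). CD68, a lysosomal protein that marks macrophages but is made by many cells, changed by -1.11 and -1.35 (adjusted p = 0.000649 and 0.000218). Their part in the synthetase results was not tested.

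**Figure D5:**
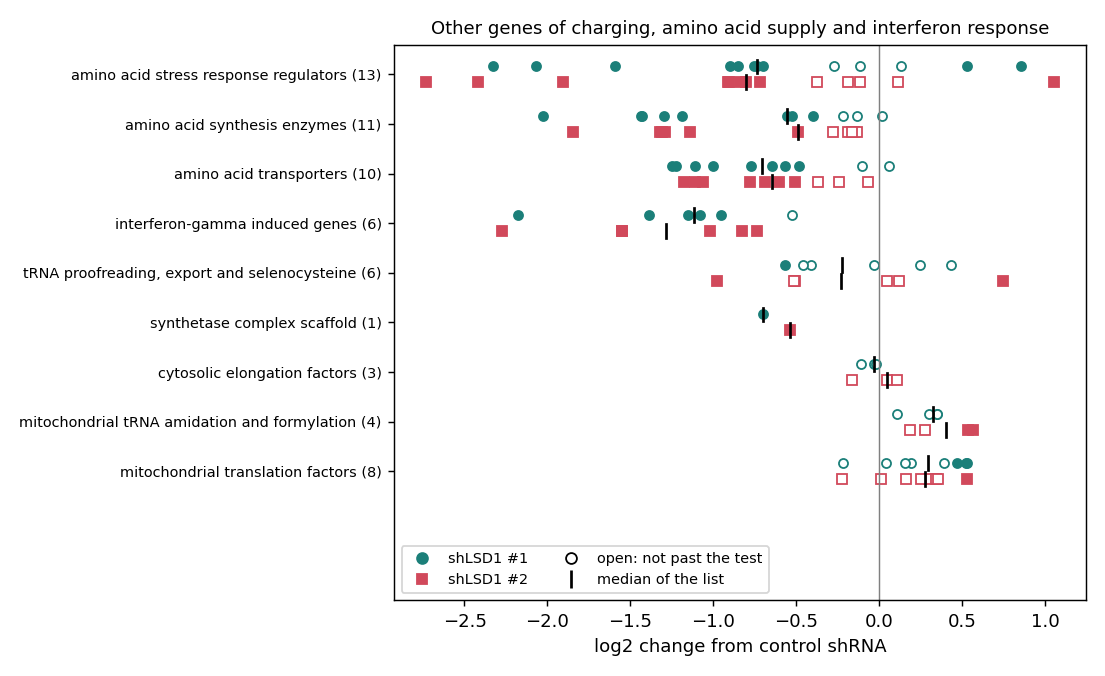
Log2 change from control shRNA of the genes in 9 lists around tRNA charging, with circles for shLSD1 #1 and squares for shLSD1 #2, filled where the adjusted p was under 0.05, and a black bar at the median of the list; the number measured stands beside each name. Medians lie left of -0.4 for the stress regulators, synthesis enzymes, transporters and interferon-gamma induced genes, and right of 0.2 for the 2 mitochondrial lists.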

How the data were processed

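Total RNA of the 9 samples was labelled with biotin and hybridised to Clariom S arrays, per the labels' protocols. The authors deposited log2 signals made by RMA in Affymetrix Expression Console 1.4, per the submitters' processing notes; the library files and options used are not given in those notes, and the log base was taken as 2 from the range of values (1.79 to 18.08). RMA quantile-normalizes the arrays, so a shift of all transcripts cannot be seen.

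Of 24351 values per array, 2903 belong to control probe sets and were left out of tests. The other 21448 clusters were fitted over the 3 groups with limma 3.58.1 (R 4.3.3; lmFit and eBayes) without covariates, and p-values were adjusted by Benjamini-Hochberg over all of them at 0.05, two-sided. Symbols came from the platform annotation, which held 17709 entries for these clusters, and only entries with 1 symbol were used. Where a group was wholly below the 95th percentile of the negative controls (mean 7.25), a bound stands in place of a fold. Compartment, complex and class were assigned from textbook knowledge. The members and the gene lists were chosen with earlier results of these data known. All members may be named; array values are given for those past the test and for partners described, and from each list up to 4 genes past the test with the largest mean absolute change. In simulated data with 21448 clusters, limma called 12%, 64% and 96% of log2 changes of 0.5, 1 and 2 in the shLSD1 #1 comparison. There were 5 false calls. In the shLSD1 #2 comparison it called 6%, 60% and 96%, with 3 false calls. Far fewer clusters were changed in the simulation than passed in the data (3385 with shLSD1 #1 and 2827 with shLSD1 #2). The p cut-off of the simulation was therefore stricter, and its shares do not describe the calls in these data. Alternatives covered normalization, centring, a low-signal filter, the prior, array weights, the spike-in class, the groups fitted and each array left out; the background of bright clusters and the pairs restricted to them were added after seeing the data. Figures were drawn with matplotlib 3.10.9.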

Additional observations from a re-analysis of the deposited data

How the results depend on the processing

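No paired analysis was possible because the replicate numbers run from 1 to 9 and no number is shared between groups. Over all the settings run, no called member changed sign: of the results per member, comparison and setting, 1548 stayed on their side of the threshold, 56 calls were lost and 8 gained. With spike-in class taken as a block, the shLSD1 #1 comparison gave 1 member lower and 0 higher and 399 of all clusters, and the cytosolic median minus the mitochondrial median moved from -0.23 to -0.47. With the same block, which for shLSD1 #2 equals leaving out replicate 8, members higher with shLSD1 #2 went from 3 to 0. Using high-class arrays alone, shLSD1 #2 gave 5 members lower, 0 higher and 1450 of all clusters. Members higher with shLSD1 #1 numbered 4 without the dimmest 1 in 3 clusters, 4 with a trended robust prior and 1 in the fit of the 2 groups alone. Leaving out 1 array gave 7 to 8 members lower and 1 to 2 higher with shLSD1 #1, and 6 to 8 lower and 0 to 3 higher with shLSD1 #2. The hairpin difference gave 0 clusters in the other settings and 42 with a trended robust prior. Other scalings moved the median of all clusters by at most 0.04. The 3 arrays a group limit which small changes can be called, above all for the 6 members not above the negative controls on all arrays.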
